A study of Mus musculus with 24 samples.

Results

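Apelin and 7 other secreted factors through which astrocytes can act on blood vessels were followed across brain regions and genotypes. The genes were Apln, Vegfa, Vegfb, Pgf, Angpt1, Angptl4, Ndp and Agt, chosen by name with earlier results of these data known. All 8 were listed in each of the 24 per-library tables, among 24421 names. Bulk RNA-seq was made from astrocytes sorted by fluorescence out of olfactory bulb, hippocampus, cortex and brainstem of C57BL6 mice at 20 weeks of age. Controls were NFIAfl/fl; Aldh1l1-GFP, so they carried the floxed Nfia alleles and the Aldh1l1-driven green reporter. The libraries labelled knockout were NFIAfl/fl; Aldh1l1-CreER; Aldh1l1-GFP and differed by a Cre recombinase under the astrocyte promoter Aldh1l1, so that the transgene and recombination of Nfia cannot be told apart. Treatment with an inducer of this Cre is not given in the sources used here. Each of the 8 groups of region and genotype held 3 libraries. The comparison in each region is that of the 2 genotype labels, which differ in the intended deletion of NFIA from adult astrocytes. NFIA belongs to the nuclear factor I proteins, which bind DNA as dimers.

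Astrocyte endfeet cover the capillaries of the brain, and astrocytes secrete ligands whose receptors sit on endothelial cells. Apelin, the peptide encoded by Apln, acts through the G-protein-coupled receptor Aplnr and promotes vessel growth and calibre. VEGF-A drives sprouting through the receptor Kdr with neuropilins as co-receptors, while VEGF-B and placental growth factor (Pgf) bind Flt1. Angiopoietin 1 activates the receptor Tek (Tie2) and stabilises vessels, and norrin (Ndp) signals through Fzd4 with Lrp5, Lrp6 and Tspan12 to maintain the blood-brain barrier. Angiotensinogen (Agt), which in the brain is made largely by astrocytes, is the precursor of the angiotensin peptides. Angiopoietin-like 4 inhibits lipoprotein lipase and is a known target of hypoxia and of PPAR receptors.

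Nfia itself had more reads, not fewer, in the libraries labelled knockout. Its average log2 fold change over regions was 0.90 (SE 0.09, limma adjusted p = 1.92e-07), and reads counted over a whole gene cannot show whether a floxed exon was lost. The label was therefore not checked by these values, and the groups are named by it throughout. Between 1090777 and 24297573 reads were recovered per library, least in brainstem. All 14 astrocyte markers were above 0 in every group. The 12 choroid plexus markers belong to an epithelium of the ventricles. They summed to 109605 to 227229 jointly scaled reads in hippocampal controls and to 3679 to 9617 in the hippocampal libraries labelled knockout. Of the 12, 8 fell there, where 2.51% of all genes were called. None of the 16 endothelial markers passed the test in any comparison of the genotype labels (0.0868% of genes called in olfactory bulb, 5.88% in the average). Their sums, in controls and in libraries labelled knockout, were 689 to 2441 and 820 to 1489 in olfactory bulb. In hippocampus they were 893 to 4797 and 1295 to 4247, and in cortex 821 to 2683 and 1361 to 4822. In brainstem they were 2560 to 3663 and 1867 to 6404, and whether endothelial content differed was not tested. No pair of libraries of a group agreed within sampling noise, and no label says that replicates came from separate animals, so p-values measure the spread between these libraries.

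All 8 genes lie on the minus strand of their chromosomes in mm10. Apln is at chrX:48025146-48034853, Agt at chr8:124556534-124569706, Vegfa at chr17:46016993-46032369, Vegfb at chr19:6982473-6987651, Pgf at chr12:85166635-85177790, Angpt1 at chr15:42424723-42676977, Angptl4 at chr17:33773750-33781830 and Ndp at chrX:16885521-16911774. The 250 bases upstream of the start site are shown for the 3 genes that passed the test over all regions (Apln, Agt and Vegfa) and for Ndp, in which the single-subunit site TTGGCA of nuclear factor I was found. They are RefSeq promoter sequences on GRCm38.p6, written 5′ to 3′ on the gene's strand, and capitals mark this site, which reads TTGGCA on the opposite strand at bases -141 to -136 from the start. The 4 windows are chrX:48034854-48035103, chr8:124569707-124569956, chr17:46032378-46032627 and chrX:16911775-16912024.
Apln: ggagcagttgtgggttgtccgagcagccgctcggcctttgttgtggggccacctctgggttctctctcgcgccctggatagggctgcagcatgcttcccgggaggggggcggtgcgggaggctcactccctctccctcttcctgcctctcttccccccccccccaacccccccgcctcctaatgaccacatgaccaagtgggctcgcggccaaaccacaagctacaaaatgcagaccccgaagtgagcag
Agt: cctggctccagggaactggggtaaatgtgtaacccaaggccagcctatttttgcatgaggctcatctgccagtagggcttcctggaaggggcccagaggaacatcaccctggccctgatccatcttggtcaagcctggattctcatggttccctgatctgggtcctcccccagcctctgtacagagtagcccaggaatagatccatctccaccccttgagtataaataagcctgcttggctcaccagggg
Vegfa: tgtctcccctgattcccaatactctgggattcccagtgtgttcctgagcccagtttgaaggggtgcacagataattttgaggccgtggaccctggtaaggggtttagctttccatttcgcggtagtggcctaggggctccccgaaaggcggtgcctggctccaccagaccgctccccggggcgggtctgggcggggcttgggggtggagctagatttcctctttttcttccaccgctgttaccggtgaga
Ndp: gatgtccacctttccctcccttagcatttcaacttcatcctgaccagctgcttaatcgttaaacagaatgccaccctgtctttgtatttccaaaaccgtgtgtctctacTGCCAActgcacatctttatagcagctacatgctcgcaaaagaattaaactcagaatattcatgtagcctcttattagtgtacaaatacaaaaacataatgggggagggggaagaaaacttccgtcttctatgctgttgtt

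Motifs were searched on both strands of these windows in the 6 members with RefSeq entries, which have 8 start sites. The full nuclear factor I palindrome, TTGGC and GCCAA with any 5 bases between them, was in none of the 8 windows and in 0.0365% of 32851 mouse promoters. The single-subunit site, searched as TTGGCA, can overlap the palindrome. It was in the Ndp window alone and in 12.3% of all promoters. The shorter TTGGC, 1 arm of the palindrome, also stands in the Apln, Agt and Pgf windows, on either strand. Its share over all promoters was not counted. The hypoxia response core, ACGTG or GCGTG, was in 38.6% of all promoters. Among the members the core occurred 2 times upstream of the second listed start site of Vegfa, 2 times upstream of Vegfb and 1 time upstream of the first start site of Pgf. These Vegfa and Pgf windows, chr17:46025164-46025413 and chr12:85177314-85177563, lie inside the genes at the positions given above. The window of the first listed start site of Vegfa, printed above, held no core. No match in a window says only that these letters are not there.

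Apln was among the most abundant of these transcripts in control astrocytes and was lower in the libraries labelled knockout in olfactory bulb and hippocampus. In olfactory bulb the 3 controls held 446, 568 and 594 normalised reads, and the libraries labelled knockout held 88.7, 74.3 and 157. Every library labelled knockout was below every control, and the means differed 5.03-fold (log2 fold change -2.34, SE 0.30, adjusted p = 0.000273). In hippocampus the controls held 333, 622 and 829.8 and the libraries labelled knockout 148, 203 and 229.8. These groups did not overlap either, although the controls spread widely, and the fold change was 3.08 (log2 -1.52, SE 0.30, adjusted p = 0.00591). Both calls held in each of the 6 fits that left out a library of the region, with adjusted p up to 0.00841 in olfactory bulb and up to 0.0349 in hippocampus.

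In cortex Apln stood at 695, 1177 and 1091 in controls and at 406, 363 and 383 in the libraries labelled knockout. The groups were again apart, by 2.57-fold, and the log2 difference of -1.32 (SE 0.30) missed the threshold at an adjusted p of 0.0518. Without cortical control 1, the lowest of the 3 controls, the log2 difference was -1.55 and passed (adjusted p = 0.0280). The other 5 fits with a cortical library left out did not pass (adjusted p up to 0.310), with differences as small as -1.17. Of 11 other settings, 7 passed and 4 did not (adjusted p up to 0.145). In brainstem the controls held 727, 1318 and 686 and the libraries labelled knockout 606, 728 and 615. Here the groups overlapped, all 3 libraries labelled knockout were below the control mean, and the log2 difference of -0.42 (95% interval -1.03 to 0.19) did not pass (adjusted p = 0.528).

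**Figure D1:**
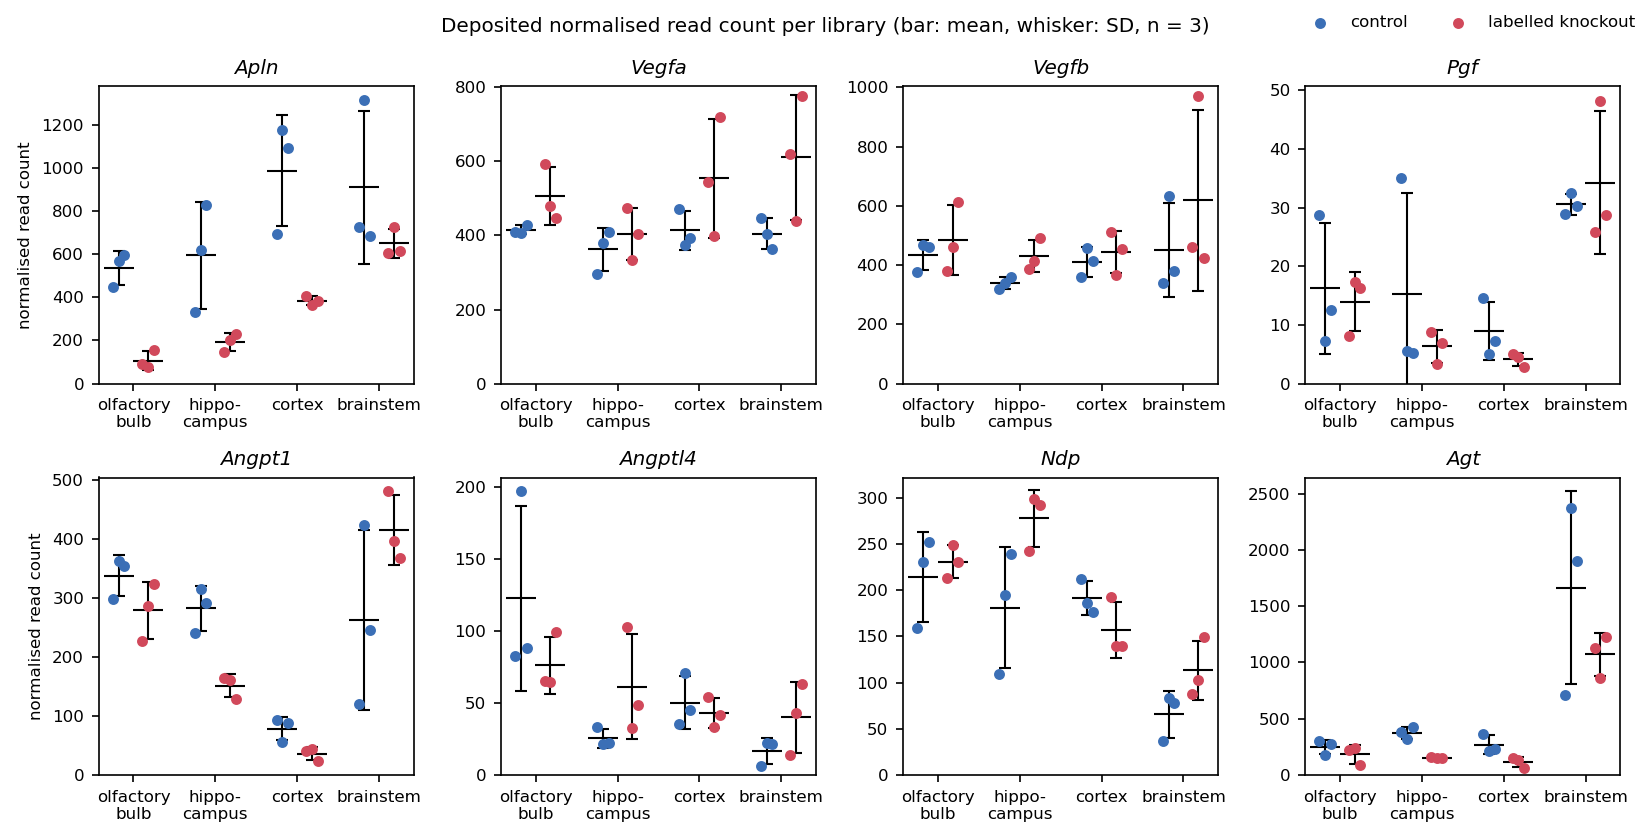
Deposited normalised read count (y axis) of each gene by region (x axis) and genotype label. Points are libraries, bars are means and whiskers are SD (n = 3). Apln of the libraries labelled knockout lies below all controls in olfactory bulb, hippocampus and cortex and overlaps them in brainstem.

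Averaged over the 4 regions, Apln fell by 1.40 on the log2 scale (SE 0.15, adjusted p = 1.68e-06), and it ranked 12 of 12673 tested genes by p. The libraries labelled knockout were below the control mean of their region in 12 of 12 cases. Only 76 genes, 0.6% of those tested, were lower without overlap in at least 3 of the regions, and Apln was one of them. Apln was chosen with earlier results of these data known, so its rank and this share are descriptive only. The log2 differences ran from -2.34 in olfactory bulb to -0.42 in brainstem, and the gap between these regions was -1.91 (SE 0.42, unadjusted p = 0.000126). After adjustment over all genes, 0.0237% of which passed, this difference did not pass (adjusted p = 0.115), nor did the F test of unequal change among the 4 regions (adjusted p = 0.249). Without brainstem control 2, the highest Apln library of its group, the F test passed (adjusted p = 0.0374). That fit called 89 genes in the F test, against 7 with all libraries. In 23 of 24 fits with a library left out Apln did not pass it (adjusted p up to 0.469).

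Some values moved together with the fall of Apln. In hippocampus it went with the lower choroid plexus sum given above, whose part in the result was not tested. Ependymal markers, from the lining of the ventricles, summed to 223 to 286 in hippocampal controls and to 46.1 to 104 in the libraries labelled knockout. Of 6 tested, 2 fell there (Rsph1 and Foxj1), where 2.51% of all genes were called, and their part was not tested. In olfactory bulb, where Apln fell most, the choroid plexus sum was 2624 to 3175 in controls and 2630 to 3178 in libraries labelled knockout. Of its 12 markers, 3 were at 0 in all olfactory bulb controls (Folr1, Slc4a5 and Tmem72) and 2 in all libraries labelled knockout there (Folr1 and Prlr). The other markers had reads. There the 18 immediate early genes, which respond to dissociation, summed to 2495 to 5405 in controls and 1927 to 1989 in libraries labelled knockout. In cortex, where Apln values were also apart, their sum was 1603 to 3180 in controls and 2443 to 4797 in libraries labelled knockout. In hippocampus it was 554 to 8424 and 1207 to 3090, and in brainstem 1346 to 7293 and 1507 to 13095. The part of these genes was not tested. In bulk libraries fewer cells of a kind and less RNA per cell cannot be told apart.

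The other genes of the apelin system were at the limit of detection. The receptor gene Aplnr averaged between 0 and 8.22 normalised reads per group and did not pass the filter of at least 20 in 3 libraries. The second ligand, Apela, averaged at most 2.83. Of the 3 apelin genes in the tables, Apln alone was tested.

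**Figure D2:**
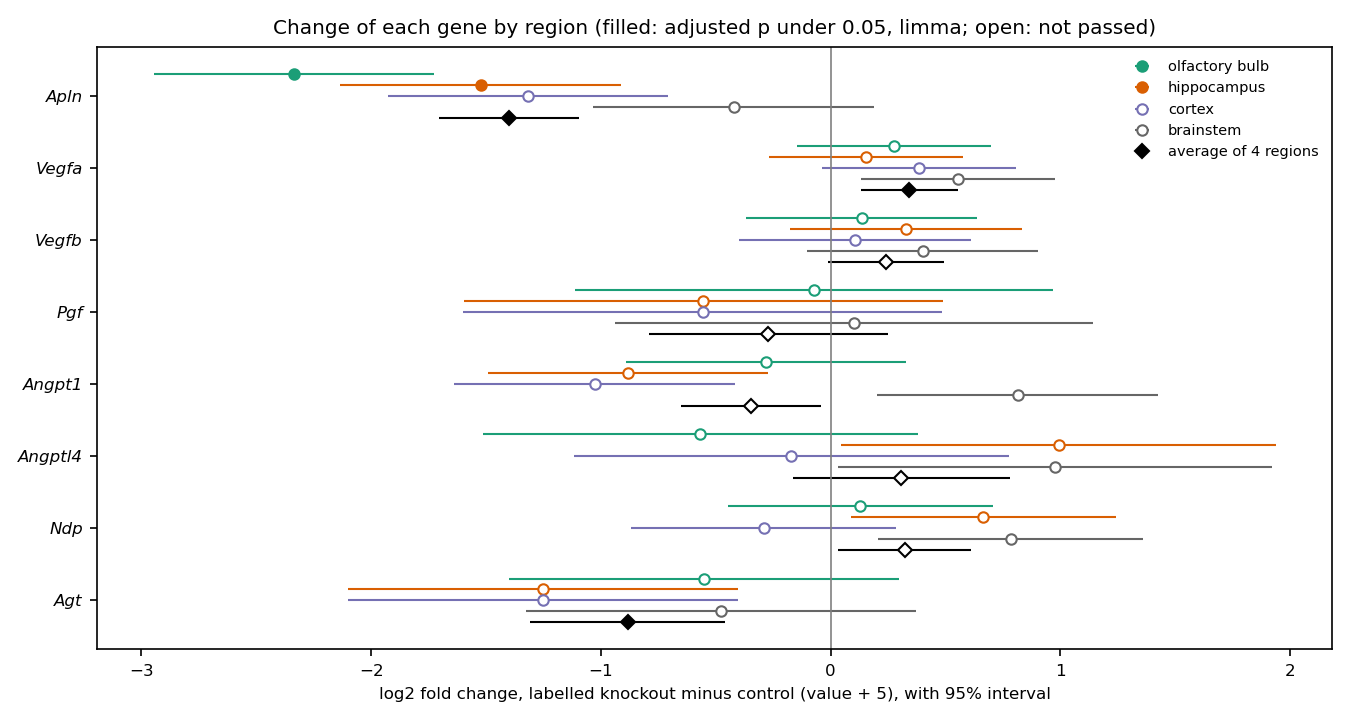
Log2 fold change of each gene, labelled knockout minus control, on the log2 (value + 5) scale with the 95% interval from limma (x axis), for each region and their average. Filled symbols passed at an adjusted p under 0.05. Apln passed in olfactory bulb, hippocampus and the average, and Vegfa and Agt in the average only.

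Vegfa was slightly higher in the libraries labelled knockout. In olfactory bulb it stood at 410.4, 406 and 429 in controls and at 594, 479 and 446 in the libraries labelled knockout, which did not overlap. In hippocampus the values were 296, 381 and 409.9 against 475, 333 and 404. In cortex they were 472, 376 and 392 against 545, 398 and 720.1, and in brainstem 446, 405 and 364 against 619, 439 and 776. The groups overlapped in these 3 regions, and no single region passed, with log2 differences of 0.15 to 0.55. The average rose by 0.34 (SE 0.10, adjusted p = 0.0454), close to the threshold. It was lost in 16 of 24 fits with a library left out (adjusted p up to 0.106). It was kept only without olfactory bulb labelled knockout 3, hippocampal control 3 or labelled knockout 2, cortical control 1 or labelled knockout 2, brainstem control 1 or 2, or brainstem labelled knockout 2.

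The other ligands of the family did not pass in any region or on average. Vegfb, a ligand of Flt1, held between 319.6 and 971 normalised reads in every library, with an average log2 difference of 0.24 (SE 0.12, adjusted p = 0.289). In hippocampus its controls at 319.6, 341 and 361 lay below the libraries labelled knockout at 387, 413 and 491. Pgf was the scarcest member, with 3 to 55 reads per library, and it passed the filter mainly through brainstem. Its controls averaged 30.5 ± 1.84 there (SD, n = 3) and 8.95 ± 5.01 in cortex, and its average log2 difference of -0.27 had an interval from -0.79 to 0.25.

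Of the 10 genes on the list of VEGF ligands and receptors, 9 were tested. Vegfa was the only one to pass in the average, where 5.88% of all genes were called. The median log2 difference of the 9 was 0.03, beside -0.01 for all tested genes. The receptors Kdr and Flt1, both markers of endothelium, had average differences of 0.27 (SE 0.30) and 0.32 (SE 0.39). The neuropilin genes Nrp1 and Nrp2 had -0.07 (SE 0.09) and -0.23 (SE 0.17), and none of these 4 passed.

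Angpt1 had lower values in hippocampus and cortex and higher ones in brainstem. In hippocampus the controls held 241, 315 and 291 normalised reads and the libraries labelled knockout 164, 160.1 and 128. In cortex the values were 92.6, 55.6 and 87.8 against 40.6, 44.4 and 23.8. In both regions the groups did not overlap, but the log2 differences of -0.88 (SE 0.30, adjusted p = 0.122) and -1.03 (SE 0.30, adjusted p = 0.226) did not pass.

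In brainstem Angpt1 stood at 119.9, 423 and 246 in controls and at 481, 397 and 368 in the libraries labelled knockout. The controls spread widely and reached into the other group, and the difference of 0.81 (SE 0.30) had an adjusted p of 0.191. Without brainstem control 2 the difference was 1.24 and passed (adjusted p = 0.00744). That fit called 889 genes in brainstem, against 98 with all libraries. In the other 5 fits with a brainstem library left out the difference was down to 0.35 and did not pass (adjusted p up to 0.717). In olfactory bulb the values of 298, 362 and 354 overlapped with 227, 285 and 324.

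The change of Angpt1 in cortex differed from that in brainstem by -1.84 (SE 0.42, unadjusted p = 0.000152). This did not pass over all genes (adjusted p = 0.0971), nor did the F test among regions (adjusted p = 0.192). The F test passed without brainstem control 2 (adjusted p = 0.00796), where it called 89 genes against 7 with all libraries. In 23 of 24 fits with a library left out it did not pass (adjusted p up to 0.338). The average over regions, -0.34 (adjusted p = 0.194), passed without brainstem control 1 (-0.46, adjusted p = 0.0299). A predicted gene, Gm17473, overlaps Angpt1 by 737 bases on the opposite strand and is not in the tables, and whether counting used strand is not given in the sources used here.

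Angptl4 did not pass in any region. The hippocampal controls held 33.2, 21.4 and 22.3 normalised reads and the libraries labelled knockout 102, 32.9 and 48.3, with a log2 difference of 0.99 (SE 0.46, adjusted p = 0.333). In brainstem the values were 6.42, 22.4 and 21.6 against 14.2, 43.4 and 63.2, and the difference was 0.98 (SE 0.46, adjusted p = 0.315). The groups overlapped in both regions. In olfactory bulb the difference was -0.57 and in cortex -0.17, both with an adjusted p of 1. On the list of 12 angiopoietins, angiopoietin-like proteins and Tie receptors, 6 were tested with the deposited values. Angptl2 was the 1 gene that passed, in hippocampus alone (log2 -2.35, SE 0.60, adjusted p = 0.0287, with 2.51% of all genes called there). It kept its call in 1 of 6 fits that left out a hippocampal library and lost it with a constant of 1 (0.0830) or no filter (0.0767). Its fall came beside the choroid plexus sums given above, whose part was not tested. The receptor gene Tek had an average difference of 0.04 (SE 0.35).

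Ndp had higher values in hippocampus and brainstem. The hippocampal controls held 109.7, 195 and 239 normalised reads, and the libraries labelled knockout 243, 298 and 292. In brainstem the values were 36.4, 83.4 and 77.6 against 87.7, 103 and 149. Both pairs of groups were apart by a narrow margin, and the log2 differences of 0.67 (SE 0.28, adjusted p = 0.267) and 0.78 (SE 0.28, adjusted p = 0.181) did not pass. Without brainstem control 2 the brainstem difference was 0.98 (adjusted p = 0.0461), in a fit that called 889 genes there against 98. In the other 5 fits with a brainstem library left out it did not pass (adjusted p up to 0.648). In olfactory bulb (159, 230.1 and 253 against 213, 249 and 231) and in cortex (212, 186 and 177 against 192, 139 and 139) the groups overlapped.

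Of the 5 genes of the norrin receptor complex, 1 passed. The receptor Fzd4 did so in the average (5.88% of all genes called) and in olfactory bulb (0.0868%). It fell on average by 0.63 on the log2 scale (SE 0.13, adjusted p = 0.00292), a call kept in all 24 fits with a library left out. The fall in olfactory bulb was 1.28 (SE 0.26, adjusted p = 0.0395), from 105.8 ± 30.4 to 39.6 ± 4.23 normalised reads. That call was kept in 1 of 6 such fits, the one without olfactory bulb control 2, and the adjusted p reached 0.239. Fzd4 in olfactory bulb was also lost in 4 of 11 other settings (up to 0.0756). The co-receptors Lrp5 and Lrp6 and the tetraspanin Tspan12 had average differences of 0.09, -0.24 and -0.01, and none passed.

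Agt was lower in the libraries labelled knockout on average. In hippocampus the controls held 381, 317 and 426 normalised reads and the libraries labelled knockout 157, 153 and 150.3. In cortex the values were 369, 211 and 229 against 151, 130.1 and 61.3. The groups were apart in both regions, by 2.44-fold and 2.36-fold, and both log2 differences were -1.25 (SE 0.41). Neither passed over all genes, at an adjusted p of 0.121 in hippocampus and 0.417 in cortex.

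In olfactory bulb Agt stood at 299, 182 and 278 in controls and at 219, 240.3 and 87.8 in the libraries labelled knockout. In brainstem the controls held 714, 2377 and 1902 and the libraries labelled knockout 1126, 862 and 1229.6. These groups overlapped, and the brainstem controls spread widely. The log2 difference in brainstem was -0.48, with an interval from -1.33 to 0.37 from the spread pooled over all groups. The average over regions fell by 0.88 (SE 0.20, adjusted p = 0.0128), with 12 of 12 libraries labelled knockout below the control mean of their region. This call held in all 24 fits with a library left out, with adjusted p up to 0.0270. Beside it, 9 of the 12 choroid plexus markers fell in the average (3.09% of all genes did), and their part in it was not tested. Their sum in cortex was 3529 to 97384 in controls and 1144 to 12396 in the libraries labelled knockout.

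Of the 16 angiotensin system genes, 10 were tested, and 3 fell in hippocampus (2.51% of genes were called there), Agt not among them. They were Ctsd, the lysosomal protease cathepsin D (log2 -0.64, SE 0.16, adjusted p = 0.0222), Atp6ap2, the prorenin receptor (-0.76, SE 0.19, adjusted p = 0.0275), and Ace, which converts angiotensin I (-4.28, SE 1.09, adjusted p = 0.0483). Ace averaged 1013 ± 449 normalised reads in hippocampal controls and 62.2 ± 64.1 in the libraries labelled knockout, beside the choroid plexus sums given above, and their part in it was not tested. With a hippocampal library left out, Ctsd kept its call in 2 of 6 fits, and Atp6ap2 and Ace in 1 of 6. Ace was also lost in 5 of 11 other settings, both edgeR fits among them (adjusted p up to 0.0801), and Ctsd with the region alone (0.0781). Renin (Ren1) was listed at 0 in every library.

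Set against all genes, the 8 factors gave 1 call in olfactory bulb (Apln, where 0.0868% of tested genes were called) and 1 in hippocampus (Apln, 2.51%). The 8 were chosen with earlier results of these data known, so the shares give scale and are no test of the set. In cortex limma called 0 of 8 (0.324% of genes), with 3 at an unadjusted p under 0.05 (722 of 12673 genes). edgeR also called 0 there, while DESeq2 and voom called 1, Apln. In brainstem limma, edgeR, DESeq2 and voom each called 0 of 8 (0.773% of genes by limma), with 4 at an unadjusted p under 0.05 (1923 genes). In hippocampus 5 of 8 were at an unadjusted p under 0.05 (1723 genes). The average over regions gave 3 calls (5.88% of genes), 1 higher (2.79%) and 2 lower (3.09%). The F test among regions gave 0 by limma and edgeR (0.0552% of genes), 4 at an unadjusted p under 0.05 (923 genes), 2 by DESeq2 (Apln and Angpt1) and 1 by voom (Angpt1).

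Values without overlap and lower in the libraries labelled knockout were found for 1 member in olfactory bulb (6.86% of tested genes), 0 in brainstem (5.65%), 3 in cortex (7.21%) and 3 in hippocampus (10.4%). The 3 were Apln, Angpt1 and Agt in both hippocampus and cortex. Values without overlap and higher were found for Vegfa in olfactory bulb (7.19% of genes), Vegfb and Ndp in hippocampus (9.76%) and Ndp in brainstem (5.41%), and for 0 in cortex (7.23%).

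Control astrocytes differed between regions in 5 of the 8 genes. The F test over the 4 control groups, on values rescaled jointly over all libraries, called Ndp, Angpt1, Agt, Angptl4 and Apln, where it called 23.5% of genes. Vegfa, Vegfb and Pgf did not pass. In single pairs, olfactory bulb differed from hippocampus in 1 member (10% of genes called), from cortex in 2 (8.55%) and from brainstem in 3 (19.5%). Hippocampus differed from cortex in 1 (1.19%) and from brainstem in 2 (7.59%), and cortex from brainstem in 4 (15.3%). The 5 calls of the F test held under every alternative and in all 12 fits with a control library left out. The share of reads on Rn45s, the ribosomal RNA precursor, also differed between regions and its part was not tested. It was 0.966% to 2.87% in hippocampus, 17.7% to 20.9% in cortex and 13.5% to 25.6% in brainstem, and in olfactory bulb 2.14% or more, with 20.8% in the library labelled knockout 3.

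Per kilobase of exon, Agt was the most abundant member in brainstem controls at 875 jointly scaled reads, followed by Apln at 287 and Vegfb at 279.8. In cortex the order was Apln at 397, Vegfb at 324, Agt at 180.3, Ndp at 125 and Vegfa at 122. In olfactory bulb Vegfb stood first at 270.0, ahead of Apln at 169.7, and in hippocampus Vegfb at 211, Agt at 197 and Apln at 188 were close to each other. Pgf was lowest in olfactory bulb, hippocampus and cortex at 5.56, 5.24 and 3.90 per kilobase, and in brainstem Angptl4 was, at 4.71.

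Agt was highest in brainstem. On the joint scale its controls held 709.9, 2366 and 1890.3 reads there, against 298, 181 and 278 in olfactory bulb, 379, 316 and 424 in hippocampus and 465, 267 and 291 in cortex. No library of another region reached the lowest brainstem control. Brainstem was higher than olfactory bulb by 6.56-fold (19.5% of genes differed), than hippocampus by 4.44-fold (7.59%) and than cortex by 4.85-fold (15.3%), with adjusted p of 0.000128, 0.00322 and 0.00101. The other 3 regions did not differ from each other in any pair. The choroid plexus sum was 78698 to 377306 in brainstem controls, against 2624 to 3175 in olfactory bulb and 3529 to 97384 in cortex. It was 109605 to 227229 in hippocampus, where Agt was 4.44-fold lower than in brainstem, and its part was not tested.

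Ndp was lowest in brainstem. Its joint values were 36.2, 83 and 77.2 in brainstem, 159, 229 and 252 in olfactory bulb, 109, 194 and 238 in hippocampus and 267, 236 and 224 in cortex. Brainstem lay below all libraries of the other regions, by 3.26-fold against olfactory bulb, 2.76-fold against hippocampus and 3.70-fold against cortex, with adjusted p of 5.94e-05, 0.00113 and 1.53e-05. These 3 calls, like those of Agt, held under every alternative and with each library left out. Of the norrin receptor genes, Tspan12 was also lower in brainstem in these 3 pairs (log2 1.63 to 1.94 for the other regions minus brainstem). Fzd4 was higher in brainstem than in olfactory bulb (-1.28, adjusted p = 0.000519), and Lrp6 was higher there than in olfactory bulb (-0.54, adjusted p = 0.0430) and cortex (-0.72, adjusted p = 0.00891). Astrocyte markers summed to 150441 to 394905 jointly scaled reads in brainstem controls, 326829 to 388303 in olfactory bulb, 329282 to 551978 in hippocampus and 543448 to 737674 in cortex. Against cortex 5 of the 14 were lower in brainstem, against olfactory bulb 4 lower and 1 higher, and against hippocampus 4 lower and 3 higher. Oligodendrocyte markers were higher in brainstem, 9 of 10 against olfactory bulb, 3 against cortex and 1 against hippocampus, and the part of either list was not tested. Over all genes 19.5% were called between brainstem and olfactory bulb, 15.3% between brainstem and cortex and 7.59% between brainstem and hippocampus.

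Angpt1 was lowest in cortex. Cortical controls held 117, 70.6 and 111 on the joint scale, against 296, 361 and 354 in olfactory bulb, 239.9, 314 and 290.0 in hippocampus and 119, 421 and 244 in brainstem. Cortex was below all libraries of the other regions, by 3.38-fold against olfactory bulb (adjusted p = 0.000176, 8.55% of genes called), 2.83-fold against hippocampus (0.00917, 1.19%) and 2.63-fold against brainstem (0.00539). The call against hippocampus was lost without cortical control 2 (adjusted p = 0.120) or with the control libraries alone (0.0665), and that against brainstem without cortical control 2 (0.0542) or brainstem control 2 (0.0550).

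Angptl4 was highest in olfactory bulb, at 82.7, 196 and 87.9 on the joint scale. Cortex followed with 44.3, 89.5 and 57.2, which overlapped with olfactory bulb and did not differ by the test (adjusted p = 0.340). Hippocampus held 33, 21.3 and 22.2 and brainstem 6.39, 22.3 and 21.4, from 6 to 11 reads in the brainstem libraries. Olfactory bulb was above hippocampus by 4.79-fold (adjusted p = 0.00445, 10% of genes called) and above brainstem by 7.33-fold (0.000171), and cortex was above brainstem by 3.81-fold (0.0107). Leaving out olfactory bulb control 2 ended the call against hippocampus (adjusted p = 0.0540), and leaving out cortical control 2 (0.0781) or brainstem control 1 (0.0976), or the use of voom (0.0769), ended that of cortex against brainstem.

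**Figure D3:**
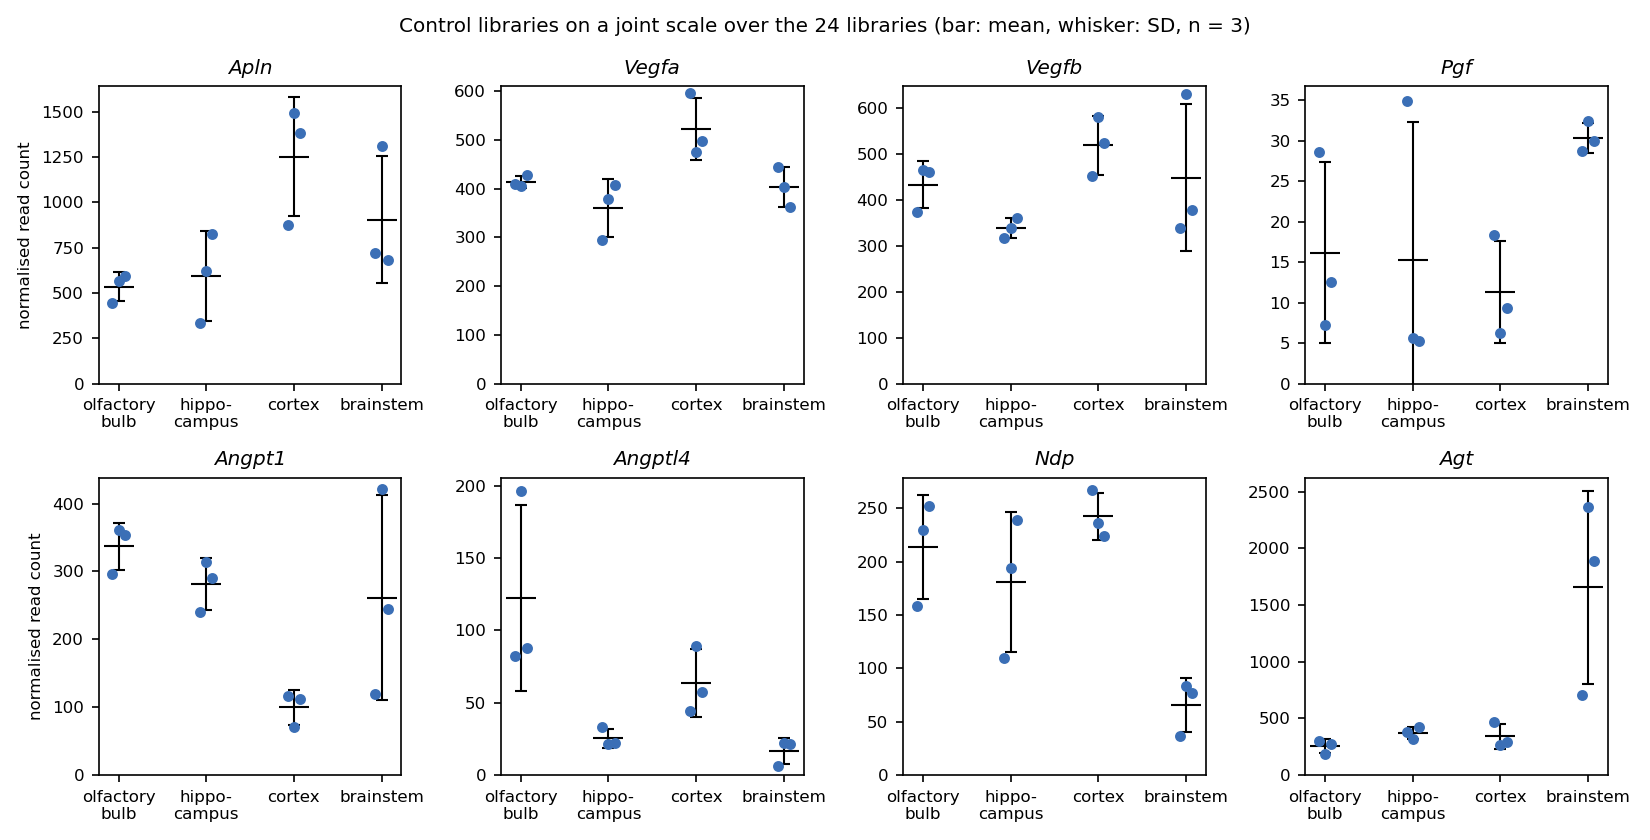
Level of each gene in control libraries by region (x axis), as normalised read count on a scale joint to all 24 libraries (y axis). Points are libraries, bars are means and whiskers are SD (n = 3). Agt is highest and Ndp lowest in brainstem, Angpt1 is lowest in cortex and Angptl4 highest in olfactory bulb.

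Apln was highest in cortex, at 877, 1492 and 1385 on the joint scale. Brainstem held 723, 1311 and 682, hippocampus 331, 619 and 827, and olfactory bulb 444, 566 and 593. Cortex was above olfactory bulb by 2.34-fold (adjusted p = 0.00977) and was apart from hippocampus by 2.11-fold without passing (adjusted p = 0.0597). Apln did pass in that pair with DESeq2 (adjusted p = 0.0196), voom (0.0179) and an added constant of 20 (0.0490), and without hippocampal control 3 (0.0202) or cortical control 1 (0.0196). The neighbours in this order, cortex and brainstem, brainstem and hippocampus, and hippocampus and olfactory bulb, did not pass in any pair. The call against olfactory bulb was lost without olfactory bulb control 1 (adjusted p = 0.0596) and without cortical control 2 (0.0641) or 3 (0.0503). It was also lost on the deposited scale (-0.85 in place of -1.19, adjusted p = 0.0509), because cortical tables had been scaled apart, by 1.26 to 1.27 times.

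Vegfa and Vegfb differed less across regions. The control means of Vegfa ran from 361 ± 59.1 in hippocampus to 523 ± 63.7 in cortex on the joint scale (SD, n = 3), and those of Vegfb from 339 ± 20.8 to 519.5 ± 64. No pair of regions passed for either gene. The unadjusted 95% interval of the widest difference, hippocampus minus cortex, was -0.96 to -0.12 for Vegfa and -1.11 to -0.10 for Vegfb.

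Other secreted angiogenic factors changed in both directions. On this list of 29 genes, 25 were tested. In the average 3 rose (2.79% of all genes did) and 5 fell (3.09%), with a median of -0.21 beside -0.01 for all genes. Ptn, which encodes the growth factor pleiotrophin, rose by 0.60 (SE 0.09, adjusted p = 6.52e-05), and Wnt7a, an astrocyte and neural ligand of the blood-brain barrier, rose by 0.59 (SE 0.12, adjusted p = 0.00358). Hbegf and Tgfa, ligands of the EGF receptor, fell by 0.72 (SE 0.15, adjusted p = 0.00409) and by 0.74 (SE 0.16, adjusted p = 0.00611). These 4 calls held in all 24 fits with a library left out. In single regions Ptn rose in hippocampus, from 3331 ± 889 to 6138 ± 214 normalised reads (log2 0.92, adjusted p = 0.00339), and the call was kept in 6 of 6 such fits. Of the other single-region calls of this list, Tgfa (-1.25, adjusted p = 0.0366) and Igf2 (-3.09, 0.0142) in hippocampus were kept in 2 and 4 of 6. Ptn (0.81, 0.0232) and Hgf (-1.49, 0.0314) in brainstem were kept in 3 and 2 of 6. Over all genes 2.51% were called in hippocampus and 0.773% in brainstem. The hippocampal falls of Tgfa and Igf2 came beside the choroid plexus sums given above, whose part was not tested.

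Inhibitors of angiogenesis were as divided. Of 18 listed genes 17 were tested, and in the average 3 rose (2.79% of all genes) and 3 fell (3.09%), with a median of -0.18. Timp2, an inhibitor of metalloproteinases, fell by 0.74 (SE 0.12, adjusted p = 0.000575), and Adgrb1, an adhesion receptor known as brain angiogenesis inhibitor, rose by 0.56 (SE 0.11, adjusted p = 0.00244). Both held in all 24 fits. Sema3f fell by 1.11 (adjusted p = 0.0219) and was lost without cortical control 1 (adjusted p = 0.0511). Col18a1, the source of endostatin, fell by 0.97 (adjusted p = 0.0277) and was lost in 7 of 24 fits (adjusted p up to 0.0670). In hippocampus Col18a1 went from 58.3 ± 28.9 to 4.06 ± 1.22 normalised reads (log2 -2.72, adjusted p = 0.00524), beside the choroid plexus markers, whose part was not tested.

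**Figure D4:**
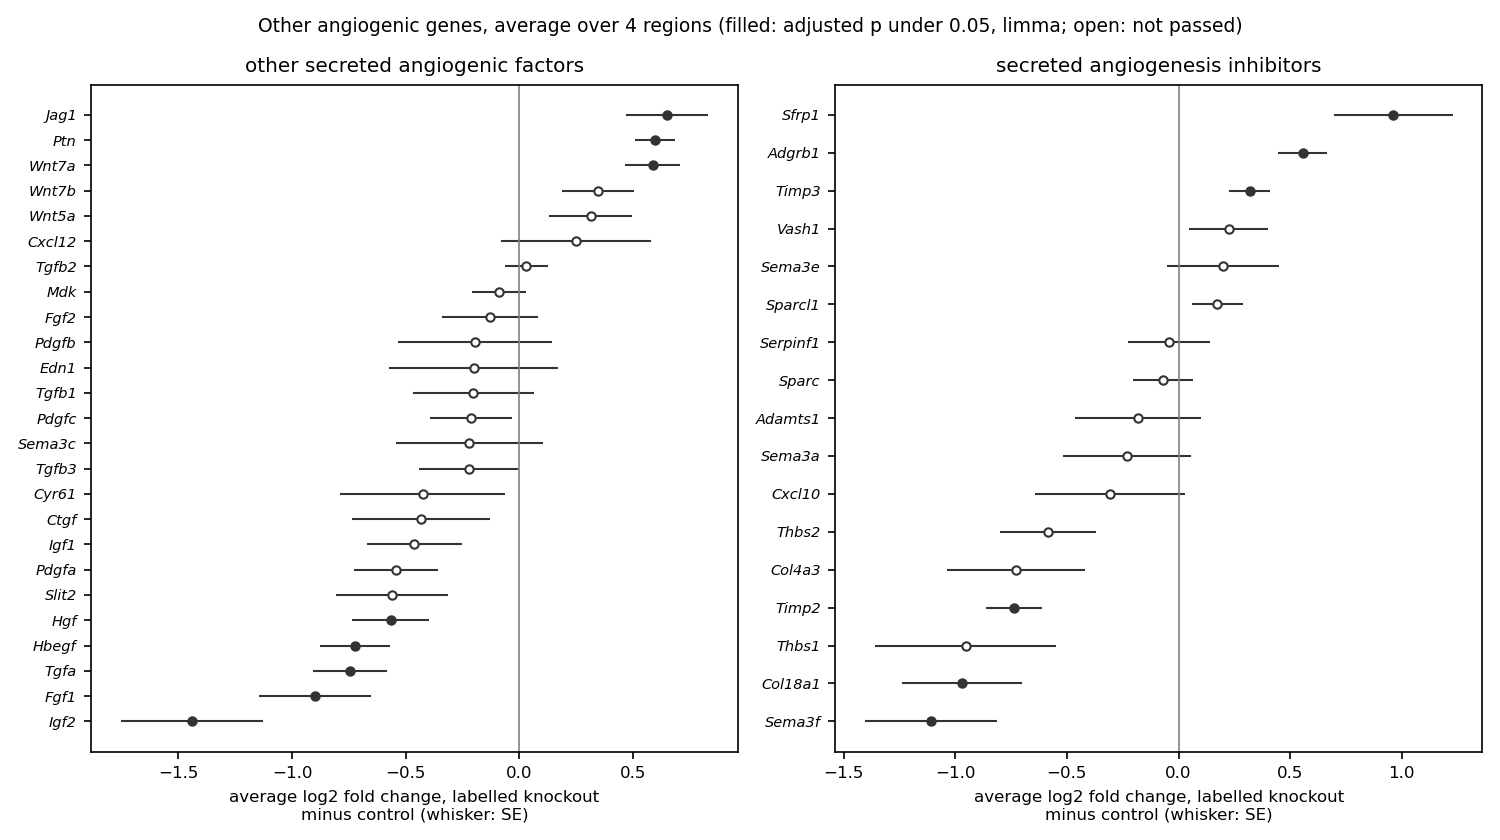
Average log2 fold change over the 4 regions, labelled knockout minus control, with SE (x axis), for the tested genes of the lists of other secreted angiogenic factors and of angiogenesis inhibitors. Filled points passed at an adjusted p under 0.05: 3 higher and 5 lower on the left, 3 higher and 3 lower on the right.

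Genes of the hypoxia response, to which Vegfa and Angptl4 belong in many cell types, did not pass in any single region. Of 26 listed genes 21 were tested, with a median average difference of 0.00 on the log2 scale. Apart from Vegfa, whose average call is given above, the 1 call in the average (5.88% of all genes) was Vldlr, a lipoprotein receptor. It fell by 0.56 (SE 0.12, adjusted p = 0.00330).

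The tested genes whose profile over the 24 libraries was closest to that of Apln were Emp2, Sod3, Fam20c, Smim3 and Rhou. Closeness was the root mean square difference of centred log2 values, 0.70 to 0.78 for these 5, beside an SD of 1.13 for Apln itself. Emp2 differed by -0.81, -1.32, -1.20 and -0.20 in olfactory bulb, hippocampus, cortex and brainstem, and Rhou by -1.50, -0.20, -0.49 and 0.07. For Agt, Trpm3 and Anln were at 0.62 and 0.64 (SD of Agt 1.26), and for Vegfa the closest were Pigq, Cbx3 and Inpp5f (0.27 to 0.28, SD of Vegfa 0.37).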

How the data were processed

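Per the submitters' processing notes, STAR 2.5.0a, FastQC, DESeq2 1.20.0 and the mm10 build were used on the reads; the counting tool and the annotation are not given in the sources used here. Library preparation started from 5 ng of RNA, per the labels' protocols. The deposited values, 1 table for each library, are a normalised signal: reads over a library's own factor, since 100% of them came out whole (tolerance 0.01 read). Recovered reads served the alternatives and a scale joint to all libraries, because cortical tables had been scaled apart.

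A gene entered the tests if its value reached 20 in 3 libraries or more (12673 genes as deposited, 12759 jointly scaled). limma 3.58.1 under R 4.3.3 modelled log2 (value + 5) by 8 group means, with trend and robust moderation, and the script was tested on simulated data. Changes called log2 are on that scale, which understates those of low genes, and fold ratios compare group means. Tests were two-sided, Benjamini-Hochberg adjusted within each contrast, at a threshold of 0.05. Genotype labels were compared within regions on deposited values, and regions on the joint scale. Members and gene lists were chosen with earlier results of these data known. From a list, up to 4 genes that passed in a contrast were named, by smallest p; for profiles, the 5 tested genes nearest to Apln and the 3 nearest to each other member that passed, of which 1 is not reported here. Alternatives were edgeR 4.0.16, DESeq2 1.42.0, voom, other constants, filters and scales, a replicate block, single regions, and each library left out. Gene positions come from GENCODE on mm10, which matched 23350 names.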

Additional observations from a re-analysis of the deposited data

How the results depend on the processing

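Of 1261 values of a member in a comparison of genotype labels or in an F test under an alternative, 1224 stayed on the same side of the threshold, 18 lost and 19 gained a call, and 0 reversed. Between pairs of control regions the counts were 787, 12, 11 and 0 of 810. The number of members called in hippocampus was 2 with DESeq2 and 3 with the region's libraries alone (Apln, Agt and, in the latter, Angpt1). In cortex it was 1, Apln, with an added constant of 20, a filter value of 50, DESeq2, voom, the replicate block, the joint scale or the region alone (adjusted p 0.000318 to 0.0462), and 0 to 1 with a library left out. In brainstem it was 0 to 2 with a library left out, reaching 2 without control 2. The F test among regions called 2 with DESeq2, 1 with voom, and 0 to 2 with a library left out. The causes of these changes were not tested. The average call of Vegfa was lost with a constant of 1 (adjusted p = 0.0501) and without the filter (0.0879). Of the other genes, the average calls of Ptn, Wnt7a, Hbegf, Tgfa, Timp2, Adgrb1, Fzd4 and Vldlr held under every alternative.

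Whether the replicate numbers of the titles pair the libraries is not settled. Over 12 pairs of same-numbered libraries of a region, deviations from group means correlated at -0.115 to 0.320 (median 0.063), over 0.1 in 5. Over 24 pairs with different numbers the correlation was -0.290 to 0.162 (median -0.036), over 0.1 in 2. With the replicate block the number of members called was 1 in cortex and as without it in the other comparisons of genotype labels. Between control regions the block added Apln for hippocampus against cortex (adjusted p = 0.0158) and olfactory bulb against brainstem (0.0478). Over all genes the block gave 22 calls in olfactory bulb against 11 and 18 in the F test against 7. Other counts over all genes that moved by over 1.5 times were those of olfactory bulb with DESeq2 (56), voom (49), the region alone (92) and a constant of 20 (22), of hippocampus with DESeq2 (638 against 318), and of cortex with DESeq2 (92 against 41), voom (124), the region alone (176) and no filter (22). In brainstem edgeR called 32 with TMM and 45 with RLE factors against 98, and the region alone 0. The F test called 85 with DESeq2, 23 with voom, 15 with edgeR, 12 with a constant of 1 and 0 without the filter. With a library left out the counts ran from 3 to 9 in olfactory bulb, 93 to 250 in hippocampus, 17 to 25 in cortex, 17 to 889 in brainstem, 539 to 1290 in the average and 0 to 89 in the F test. Brainstem was the shallowest region, from 1090777 reads, and differences of Pgf and Angptl4 there rest on few reads.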

Other observations

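Genes of the vascular endfoot, the astrocyte process on the capillary, were higher in the libraries labelled knockout where they passed. All 16 listed genes were tested, and in the average 4 rose (2.79% of all genes did), with a median of 0.22 beside -0.01 for all tested genes. Of the 14 astrocyte markers 3 rose and 1 fell (3.09% of all genes did) in the average, with a median of 0.19, and their part was not tested. Lama2, a laminin chain of the basement membrane, rose by 0.36 on the log2 scale (SE 0.08, limma adjusted p = 0.0101), and the potassium channel gene Kcnj10 by 0.47 (SE 0.12, adjusted p = 0.0191). Both calls held in all 24 fits with a library left out. Aqp4, the water channel of the endfoot, rose by 0.39 (SE 0.11, adjusted p = 0.0252), a call lost in 3 such fits (adjusted p up to 0.0554). The 3 were those without olfactory bulb labelled knockout 2, hippocampal labelled knockout 3 or cortical control 1. The Aqp4 call was also lost with both edgeR fits (0.0617 and 0.0564) and without the filter (0.0575). Dag1, which encodes dystroglycan, rose by 0.27 (adjusted p = 0.0452) and kept its call in 3 of 24 fits (adjusted p up to 0.0880), and was lost in the same 3 settings.

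Of 14 PPAR target genes, all tested, 1 rose (2.79% of all genes did) and 2 fell (3.09%) in the average, with a median of 0.00. Fabp7, a brain fatty acid binding protein, rose by 0.44 (SE 0.11, adjusted p = 0.0203), and Pdk4, which restrains pyruvate oxidation, fell by 0.37 (SE 0.10, adjusted p = 0.0217). Both calls held in all 24 fits, and that of Fabp7 was lost without the filter (0.0523). Ucp2, an uncoupling protein, fell by 0.60 (SE 0.17, adjusted p = 0.0434) and kept its call in 8 of 24 fits (adjusted p up to 0.0912), and was lost without the filter (0.0691) and with voom (0.0589).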
